A study of Mus musculus with 4 samples.

Results

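Cell cycle and proliferation genes were followed across 4 Affymetrix arrays of whole mouse trachea and whole oviduct, from wild-type (WT) mice and from mice labelled null for Gemc1. The set was a fixed list of 34 gene symbols, 13 of DNA replication and the G1/S transition and 21 of mitosis, and all 34 were found among the 30702 genes named on the array. Each was read by 1 probe set. There were 4 groups with 1 array each: WT trachea and Gemc1-null trachea from male mice of 39 days, and WT oviduct and Gemc1-null oviduct from female mice of 65 days. All animals had the same mixed C57BL/6 x 129 background and none was treated. The sources used here give neither the number of mice per array nor the deleted part of the gene. With 1 array per group a difference within a tissue has no replicate, no error and no test, and the number of arrays limits the precision of every value.

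Levels are log2 RMA signals, so a difference of 1 is 2-fold, and a genotype difference is signed so that a negative value means a lower level under the Gemc1-null label than in WT. The median over all probe sets lay between 5.91 and 6.00 on the 4 arrays, and the median of the negative-control probe sets between 5.74 and 5.98. The targeted gene, now called Gmnc, stood at 5.90 in WT trachea and 4.63 on the null trachea array, both below the negative-control median. In oviduct it stood at 6.11 on the WT array and was higher, at 8.86, on the array labelled Gemc1-null. Whether the label, the place of the probes relative to the deleted part or another reason accounts for this was not tested. Motile cilia genes, which act downstream of GEMC1, were lower under the null label in 11 of 11 cases in each tissue, by a median of -3.83 in trachea and -4.13 in oviduct. The arrays are called by their labels, and every direction rests on them. The tissues carried their markers: Ovgp1, the oviductal glycoprotein, was at 12.79 and 12.84 in oviduct and 6.45 and 6.56 in trachea. Scgb1a1, the club cell secretoglobin, was at 12.74 in WT trachea, 8.39 on the null trachea array and below the negative-control median in both oviducts.

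Dividing cells copy their DNA in S phase, when MCM helicases loaded by Cdc6 and Cdt1 open the origins, and then enter mitosis under Cdk1 with cyclins A and B. Genes of the first step are transcribed mainly under E2F factors. Genes of the second step are repressed in resting cells by the DREAM complex and switched on later by B-Myb and FOXM1 at a promoter element called the cell cycle homology region, often beside CCAAT boxes bound by NF-Y. GEMC1 is a relative of geminin, the inhibitor of Cdt1, and is known to start the programme by which epithelial progenitors leave the cell cycle and become multiciliated. Adult trachea and oviduct hold few cycling cells.

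The promoters are shown because the 2 classes, which differed by unequal amounts in oviduct, also differ in these elements. RefSeq windows on GRCm38.p6, from 250 bases before to 50 after an annotated start, were given for 28 of the 34 members. Ccna2, Ccne2, Aurkb, Tpx2, Mcm4 and Kif20a had none. A cell cycle homology region, written TTTGAA or TTCGAA on either strand, was matched in the windows of 14 of 17 mitotic members (82.4%) and 1 of 11 replication members (9.09%), against 21.7% of 27025 genes. The CCAAT letters were matched in 15 of 17 (88.2%) and 7 of 11 (63.6%), against 41.1% of genes. An E2F core was searched on both strands in 4 spellings, of which TTCGCGC was the first, TTGGCGC the second, TTCCCGC the third and TTGCCGC the fourth. It was matched in 3 of 17 (17.6%) and 7 of 11 (63.6%), against 10.9%. All 14 mitotic windows with a homology region match also held the CCAAT letters, a pair found together in 9.65% of genes. In the windows of Cdca8 and Ect2 a CCAAT match overlapped a match of another motif.

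The 150 bases before the start follow for 5 mitotic members with large oviduct differences and for 3 replication members, in lower case with every match of the 3 motifs in capitals on whichever strand it lies. Mki67 is on the minus strand at chr7:135716380-135716529, Top2a on the minus strand at chr11:99024190-99024339, Kif11 on the plus strand at chr19:37376232-37376381, Cdk1 on the minus strand at chr10:69352913-69353062 and Ccnb2 on the minus strand at chr9:70421555-70421704. Of the replication members, Mcm6 is on the minus strand at chr1:128359706-128359855, Rrm1 on the plus strand at chr7:102441545-102441694 and Tyms on the minus strand at chr5:30073626-30073775.
Mki67: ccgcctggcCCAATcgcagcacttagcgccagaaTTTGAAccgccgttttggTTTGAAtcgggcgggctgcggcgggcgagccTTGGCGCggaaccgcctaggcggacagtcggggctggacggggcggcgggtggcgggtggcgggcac
Top2a: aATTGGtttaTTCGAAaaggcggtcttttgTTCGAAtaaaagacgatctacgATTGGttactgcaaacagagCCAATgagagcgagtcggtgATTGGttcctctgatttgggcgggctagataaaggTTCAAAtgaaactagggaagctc
Kif11: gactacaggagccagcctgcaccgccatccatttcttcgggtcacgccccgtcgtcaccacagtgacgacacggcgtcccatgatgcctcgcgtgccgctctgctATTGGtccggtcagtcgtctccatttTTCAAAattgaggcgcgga
Cdk1: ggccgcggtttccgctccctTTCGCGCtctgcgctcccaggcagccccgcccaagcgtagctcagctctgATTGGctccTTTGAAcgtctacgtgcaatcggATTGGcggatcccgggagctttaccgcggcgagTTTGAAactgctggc
Ccnb2: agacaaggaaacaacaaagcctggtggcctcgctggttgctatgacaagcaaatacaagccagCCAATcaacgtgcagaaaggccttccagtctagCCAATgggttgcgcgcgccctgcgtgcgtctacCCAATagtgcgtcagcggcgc
Mcm6: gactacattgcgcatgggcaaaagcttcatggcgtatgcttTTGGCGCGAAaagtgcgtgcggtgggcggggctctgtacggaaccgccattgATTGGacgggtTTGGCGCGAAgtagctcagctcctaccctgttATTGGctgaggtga
Rrm1: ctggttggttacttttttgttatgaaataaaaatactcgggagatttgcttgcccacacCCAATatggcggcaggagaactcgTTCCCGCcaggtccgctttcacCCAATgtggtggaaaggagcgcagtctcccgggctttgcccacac
Tyms: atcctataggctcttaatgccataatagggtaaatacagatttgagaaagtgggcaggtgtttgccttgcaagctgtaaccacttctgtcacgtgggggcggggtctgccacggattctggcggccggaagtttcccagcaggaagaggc
Mki67, Top2a, Kif11 and Cdk1 hold a homology region match within the printed bases, whereas the 2 matches of Ccnb2 lie outside them, farther upstream and just after the start. Plk1 and Bub1, with oviduct differences of -1.13 and -1.03, are not printed, and their matches also lie after the start. The printed windows therefore do not show how often a match lies before it. Mcm6 carries E2F cores on opposite strands that overlap each other, Rrm1 a single E2F core, and Tyms none of the 3 motifs. A match describes the letters only, not a bound site.

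The oviduct comparison asks which of these genes differ with the Gemc1-null label in the female tract. The mitotic members had a lower level in null than in WT oviduct in 21 of 21 cases, by a median of -0.86, and the measured difference was 2-fold or more for 7 of them. With each array floored at its negative-control median, 4 of the 7 kept a 2-fold difference, and 19 of the 21 stayed below 0. The replication members were lower in 12 of 13 cases by a smaller median of -0.29, and 0 of them by 2-fold. Over all 34 members, 33 were below 0, 7 lay past 2-fold in that direction and 0 in the other, and with the floor 29 were below 0, since Bub1, Cenpe, Cdc6 and Ccne2 were under it on both oviduct arrays. Of all named genes without a level filter, 39.7% lay below 0, 1.84% were lower by 2-fold or more and 0.55% higher by as much, and their median was 0.05. A level filter, a signal at or above the array median on either array compared, was passed by 28 members. Of these 6 were at least 2-fold lower and 0 higher, beside 2.75% and 0.807% of the 19713 genes that passed, and 16 were at least 1.5-fold lower, beside 5.22%. The 6 members that failed it were Bub1, Cenpe, Cenpf, Nusap1, Cdc6 and Ccne2. These counts rest on 1 array per group, and whole tissue does not tell fewer cycling cells from less of each transcript per cell.

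**Figure D1:**
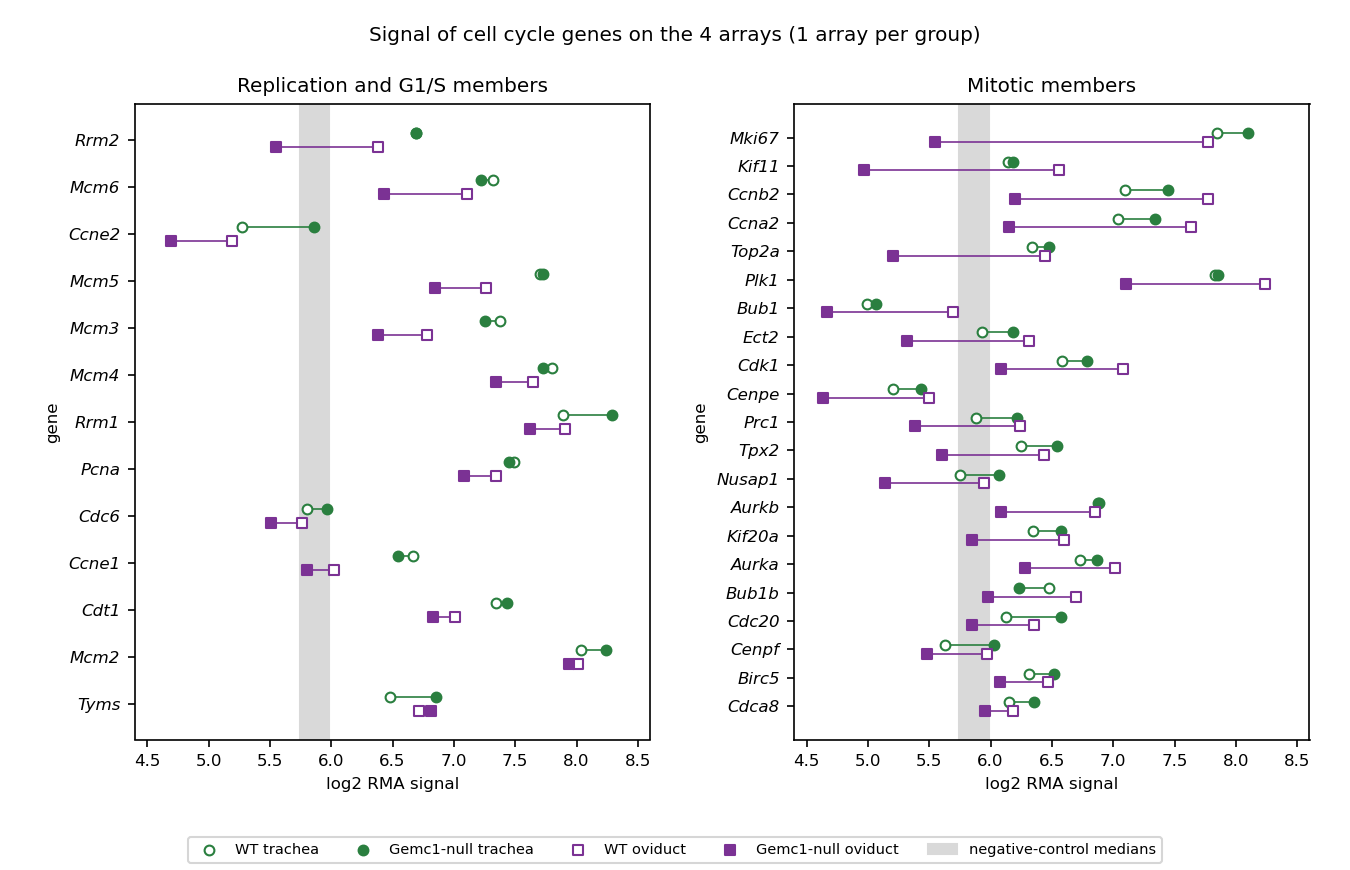
Log2 RMA signal (horizontal axis) of each member (vertical axis) on the 4 arrays, replication and G1/S members on the left and mitotic members on the right, ordered by the oviduct difference. Open symbols are WT and filled symbols the arrays labelled Gemc1-null, with trachea as green circles and oviduct as purple squares. Each symbol is 1 array, and the grey band spans the negative-control medians from 5.74 to 5.98. The filled squares are the lowest symbol for 33 of the 34 members, Tyms being the exception.

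Mki67, which encodes the proliferation marker Ki-67, had the largest oviduct difference of the set. It stood at 7.85 in WT trachea, 8.10 in null trachea, 7.77 in WT oviduct and 5.55 in null oviduct. The first 3 arrays lay within 0.32 of each other and the last was below its negative-control median of 5.79. The difference of -2.22 is therefore given as at least 3.95-fold lower. Such a bound rests on the median of the negative controls, whose own spread is wide. On each array 0 of the 34 members exceeded their 95th percentile. Both mitotic cyclins also differed by over 2-fold, with all 4 of their values above the negative-control medians. Ccnb2, cyclin B2, stood at 7.10, 7.45, 7.77 and 6.20 on the same arrays in the same order, 2.97-fold lower in oviduct. Ccna2, cyclin A2, which acts with Cdk2 in S phase and with Cdk1 at mitotic entry, stood at 7.04, 7.34, 7.63 and 6.15, 2.78-fold lower. For both cyclins WT oviduct was the highest of the 4 arrays and null oviduct the lowest. Their partner Cdk1, the kinase that starts mitosis, stood at 6.58, 6.79, 7.08 and 6.08 and was 1.99-fold lower, just short of 2-fold.

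The regulatory kinases gave smaller differences than the cyclins. Plk1, a polo-like kinase that drives entry into mitosis and spindle assembly, stood at 7.83, 7.85, 8.24 and 7.11, which made it 2.19-fold lower in oviduct and the last member inside the 2-fold line among those that passed the filter. Aurka, the spindle-pole Aurora kinase, stood at 6.73, 6.87, 7.02 and 6.28, with a difference of -0.73. Aurkb, the Aurora kinase of the chromosomal passenger complex, stood at 6.88, 6.87, 6.85 and 6.09, with a difference of -0.77. Its 3 other arrays spanned 0.03, while null oviduct lay apart from them. The 2 other passenger genes differed less: Birc5, survivin, by -0.39 and Cdca8, borealin, by -0.23. The checkpoint kinase genes Bub1 and Bub1b differed by -1.03 and -0.71, but Bub1 was below the negative-control median on all 4 arrays, so no fold is given. Cdc20, the activator of the anaphase-promoting complex, differed by -0.50.

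Genes of chromosome structure and the spindle were lower too, often down to background. Kif11, the kinesin that pushes spindle poles apart, stood at 6.14 in WT trachea, 6.19 in null trachea, 6.55 in WT oviduct and 4.97 in null oviduct. Its null oviduct value lay below the negative-control median, and with that median in its place the gene was at least 1.7-fold lower. Top2a, the topoisomerase that untangles sister chromatids, stood at 6.34, 6.47, 6.45 and 5.20 and was at least 1.57-fold lower on the same reckoning. Null oviduct was again the array that stood apart. Tpx2, which targets Aurka to the spindle, had a difference of -0.84 (at least 1.57-fold), Ect2, an activator of RhoA in cytokinesis, one of -0.995 (at least 1.43-fold) and Prc1, which bundles the central spindle, one of -0.86 (at least 1.36-fold). Kif20a, a kinesin of cytokinesis, differed by -0.75, and Nusap1, a spindle microtubule protein, by -0.80 (at least 1.11-fold). The kinetochore genes Cenpe and Cenpf differed by -0.86 and -0.48, the latter at least 1.13-fold. Cenpe was below the negative-control median on all 4 arrays. Counted against the negative-control median instead of the measured level, 4 members remained at least 2-fold lower in oviduct: Mki67, Ccnb2, Ccna2 and Plk1.

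Among the replication members the MCM helicase subunits were graded. Mcm6 stood at 7.32 in WT trachea, 7.22 in null trachea, 7.10 in WT oviduct and 6.43 in null oviduct, 1.59-fold lower in oviduct. Mcm5 had an oviduct difference of -0.42, Mcm3 of -0.40, Mcm4 of -0.30 and Mcm2 of -0.07. The 5 subunits thus spanned -0.67 to -0.07 with a median of -0.40, although they form a single ring. Mcm7, the remaining subunit, was not resolved to a probe set of its own. Rrm2, the cell-cycle-regulated subunit of ribonucleotide reductase, stood at 6.69, 6.69, 6.38 and 5.55, a difference of -0.83 that is at least 1.5-fold against background. Its stable partner Rrm1 stood at 7.89, 8.29, 7.91 and 7.62, a difference of -0.29. The 2 subunits therefore differed by unequal amounts on the same arrays.

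The other replication members were near 0 or at background. Pcna, the sliding clamp of the replication fork, differed by -0.26 in oviduct and the licensing factor Cdt1 by -0.18. Ccne1, cyclin E1, which acts with Cdk2 at the start of S phase, differed by -0.22. Cdc6 and Ccne2, cyclin E2, differed by -0.25 and -0.49 but lay below the negative-control median on both oviduct arrays. Tyms, thymidylate synthase, stood at 6.48, 6.86, 6.71 and 6.81 and was the only member above 0 in oviduct, by 0.10.

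The promoter letters and the oviduct differences were set side by side as a description. The 15 members with a homology region match had a median oviduct difference of -0.99, and the 13 with a window but no match one of -0.39. Among all genes past the oviduct filter the medians were 0.03 with a match (2019 genes) and 0.04 without (10430 genes). Within the mitotic members the 3 windows without a match, those of Birc5, Cenpe and Nusap1, belonged to genes with differences from -0.86 to -0.39. Mcm2, the only replication member with a match, had a difference of -0.07. Since 14 of the 15 members with a match are mitotic, the match and the class cannot be told apart here.

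In trachea the comparison asks the same of the airway, and the members hardly differed between the arrays. Of the 34, 26 were higher and 8 lower on the array labelled Gemc1-null, with a median of 0.20, and 0 were past 2-fold in either direction, against 5.26% of all named genes lower and 4.39% higher. Of the 31 that passed the level filter, 0 reached even 1.5-fold. Of the 20164 genes past the filter, 13.3% were lower and 11.8% higher by 1.5-fold, and 7.74% and 6.33% by 2-fold. The mitotic members were above 0 in 19 of 21 cases with a median of 0.22, and the replication members in 7 of 13 with a median of 0.02. Of all named genes in trachea 41.2% lay below 0, and their median was 0.06.

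The largest trachea differences were small beside those of the oviduct. Cdc20 was at 6.12 in WT trachea and 6.57 under the null label, a difference of 0.45. Rrm1 followed with 0.40, Cenpf with 0.40, Tyms with 0.38, Ccnb2 with 0.35 and Prc1 with 0.33. On the WT trachea array both Cenpf and Prc1 were under its negative-control median, 5.98. Ccne2, which did not pass the filter, had a difference of 0.59, from 5.27 to 5.86, and was below that median on the WT array. The lowest value was that of Bub1b, a spindle checkpoint kinase, at -0.25. Mki67 differed by 0.25, Top2a by 0.13 and Plk1 by 0.03, the genes that had stood out in oviduct.

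Side by side, 25 of the 34 members were above 0 in trachea and below 0 in oviduct, a pattern shown by 21.7% of all named genes. In both tissues 8 members were below 0, as were 18% of all named genes, namely Aurkb, Bub1b, Ccne1, Mcm3, Mcm4, Mcm6, Pcna and Rrm2, and Tyms alone was above 0 in both. The oviduct difference was more negative than the trachea difference for every member, from -0.10 for Ccne1 to -2.48 for Mki67, as it was for 51.1% of all named genes. As a description across the 34 genes, which share each tissue's pair of arrays, trachea and oviduct differences had a Pearson r of -0.07 and a Spearman rho of -0.12. The tissues shared no array. A test of the difference between the tissues was not possible with 1 array per group.

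**Figure D2:**
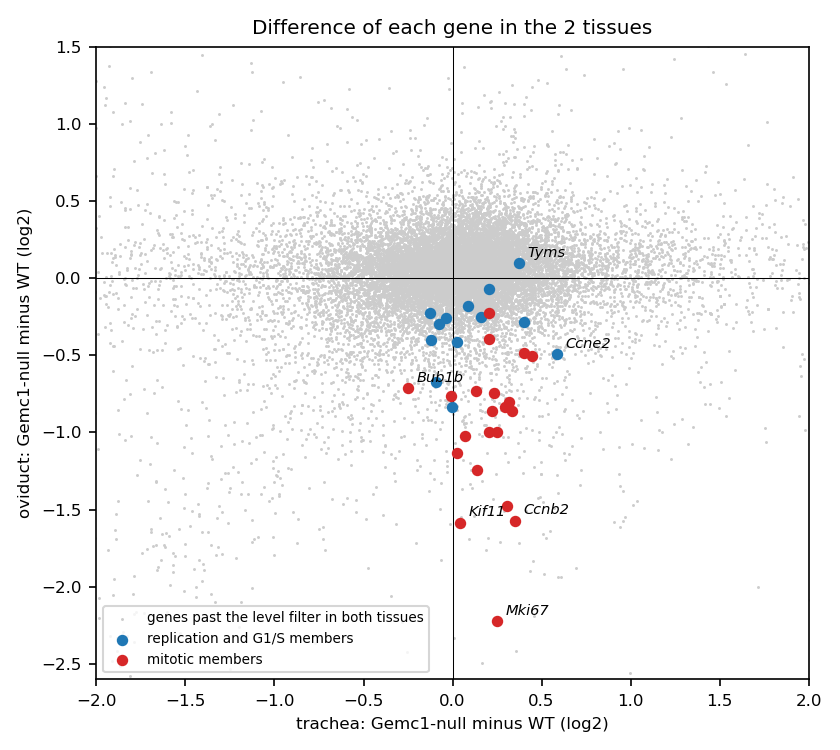
Difference of each gene between the array labelled Gemc1-null and the WT array in trachea (horizontal axis, log2) and in oviduct (vertical axis, log2). Grey points are genes past the level filter in both tissues, within the axis range, blue points the 13 replication and G1/S members and red points the 21 mitotic members. The mitotic members lie below 0 on the vertical axis, from -0.23 to -2.22, while on the horizontal axis all members lie between -0.25 and 0.59.

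Null oviduct was the lowest of the 4 arrays for 33 of 34 members, against 14.9% of all named genes. To see how far it stood from the rest, its distance to the lowest of the 3 other arrays was set against the range of those 3. The distance was the larger for 21 members, 16 mitotic and 5 replication ones, against 2.07% of all named genes. For the mitotic members the median distance was 0.58 and the median range 0.36, and for the replication members 0.27 and 0.38. WT oviduct was the highest array for 12 mitotic members and for 0 replication members, against 20.3% of all named genes. The distance of Mki67 was 2.22 against a range of 0.32, and that of Top2a 1.14 against 0.13. For Bub1, Bub1b, Cdc20, Cdca8 and Cenpf the distance was within the range.

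Between the WT arrays the classes differed in direction. The mitotic members were higher in WT oviduct than in WT trachea in 19 of 21 cases, by a median of 0.28, and the replication members lower in 11 of 13, by a median of -0.16. Ccnb2 (0.67), Ccna2 (0.59) and Cdk1 (0.50) led the former among those past the filter. Ccne1 (-0.64), Mcm3 (-0.59) and Mcm5 (-0.44) led the latter. Of all named genes 39.9% were lower in WT oviduct. In this comparison 0 of 34 members were past 2-fold, beside 4.37% of all named genes lower and 3.63% higher. Tissue, sex, age and animal differ together here and cannot be told apart. Between the arrays labelled Gemc1-null all 34 members were lower in oviduct, against 41.1% of all named genes, and 7 of them by at least 2-fold, against 4.7%.

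A fit over all 4 arrays (limma, genotype and tissue as factors, 1 residual degree of freedom) asked whether a genotype difference was shared by both tissues. Of the 31 members in the fit, 0 passed an adjusted p of 0.05 (limma, Benjamini-Hochberg over 20994 genes), and 0 had an unadjusted p under 0.05 in either direction. In the whole fit 0% of genes passed adjustment, while at the unadjusted threshold 2.7% were lower and 0.8% higher. The smallest genotype p of a member was 0.105, that of Bub1b, with a log2 difference of -0.48 (SE 0.20) and lower on the null array in both tissues (limma adjusted p 0.829). The genotype coefficient is the mean of the 2 tissue differences, and any disagreement between the tissues enters its error. For Mki67 it was -0.99 with an SE of 0.76, from differences of opposite sign, 0.25 in trachea and -2.22 in oviduct. The fit therefore cannot address a difference present in 1 tissue only. For the tissue factor, 2 members were lower in oviduct at an unadjusted p under 0.05 and 0 higher, beside 3.83% and 7.43% of genes. They were Ccne1 (-0.69, SE 0.15, limma adjusted p 0.382) and Mcm3 (-0.73, SE 0.17, limma adjusted p 0.399), lower in oviduct within both genotypes. A p above the threshold in a fit with so few arrays does not show that the members were equal.

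Other cell cycle genes were taken from 6 further lists, of which 148 of 156 genes were measured by name. In oviduct 112 of the 148 were below 0, beside 39.7% of all named genes. Of the 108 filtered ones 3 reached 2-fold downwards and 0 upwards, beside 2.75% and 0.807% of all filtered genes, so the downward count at 2-fold is near the background. At 1.5-fold 13 of the 108 were lower, beside 5.22% of all filtered genes. The spindle and kinetochore list had the lowest oviduct median of the 6, with 48 of 53 genes below 0 and a median of -0.42. Of the 53, however, 30 lay below the negative-control median in null oviduct and 22 in WT oviduct. Past the filter 26 of 28 genes of this list were below 0, with a median of -0.37, and 7 of the 28 were at least 1.5-fold lower. Of its 28 filtered genes 2 reached 2-fold: Nek2, a centrosomal kinase, at -1.68, and Kif23, a kinesin of the central spindle, at -1.16 but at background on the null array. Cenpn, a kinetochore gene, stood at -0.92. Among cyclins and CDK control genes Ube2c, the ubiquitin-conjugating enzyme of the anaphase-promoting complex, was 2.63-fold lower in oviduct, beside Cdk6 at -0.65 and Skp2 at -0.49. The median of that list was -0.11 over 15 genes past the filter.

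Genes of replication outside the members differed little in oviduct. Origin licensing and firing genes had 0 of 13 past 2-fold and a median of -0.08, with Ticrr at -0.49, Wdhd1 at -0.47 and Gins2 at 0.26. Fork and nucleotide genes had 0 of 23 and a median of -0.13, with Pole, the leading-strand polymerase, at -0.59, Asf1b, a histone chaperone, at -0.57 and Rfc2 at -0.46. The E2F and DREAM regulators had 0 of 16 and a median of -0.06, with E2f7 at -0.55, E2f8 at -0.41 and Rb1 at -0.39. Mybl2, which encodes B-Myb, stood at 7.06 in WT oviduct and 6.88 in null oviduct. Cell cycle inhibitors had 0 of 13 and a median of -0.14. Within that list Cdkn1a, which encodes p21, was lower by -0.85, Gadd45b was at -0.72 and Gadd45a at 0.82.

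In trachea the same 6 lists had 3 genes past 2-fold downwards and 3 upwards among 112 filtered, beside 7.74% and 6.33% of all filtered genes, so both counts are below the background. Nek2 was lower there too, at -1.09, and had the smallest genotype p of the 6 lists in the joint fit (0.0114, limma adjusted p 0.829). Ccnd3, cyclin D3, was at -1.23 and Btg1, an antiproliferative gene, at -1.65. Ccng1, cyclin G1, was at 1.95, E2f8 at 1.19 and Tfdp2, a dimer partner of E2F, at 1.02. Below 2-fold, Cdkn1a was at 0.92, E2f6 at 0.63, Ube2c at 0.59 and Wee1, an inhibitor of Cdk1, at 0.56. The spindle list had a trachea median of 0.07 over 29 genes, with Smc4 at -0.86 and Ckap2l at 0.49. Origin genes had a median of 0.09, with Cdc7 at -0.39, Ticrr at 0.36 and Gins3 at -0.33. Fork genes had one of 0.04, with Pold3 at -0.64, Rfc4 at 0.48 and Rfc2 at -0.45.

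**Figure D3:**
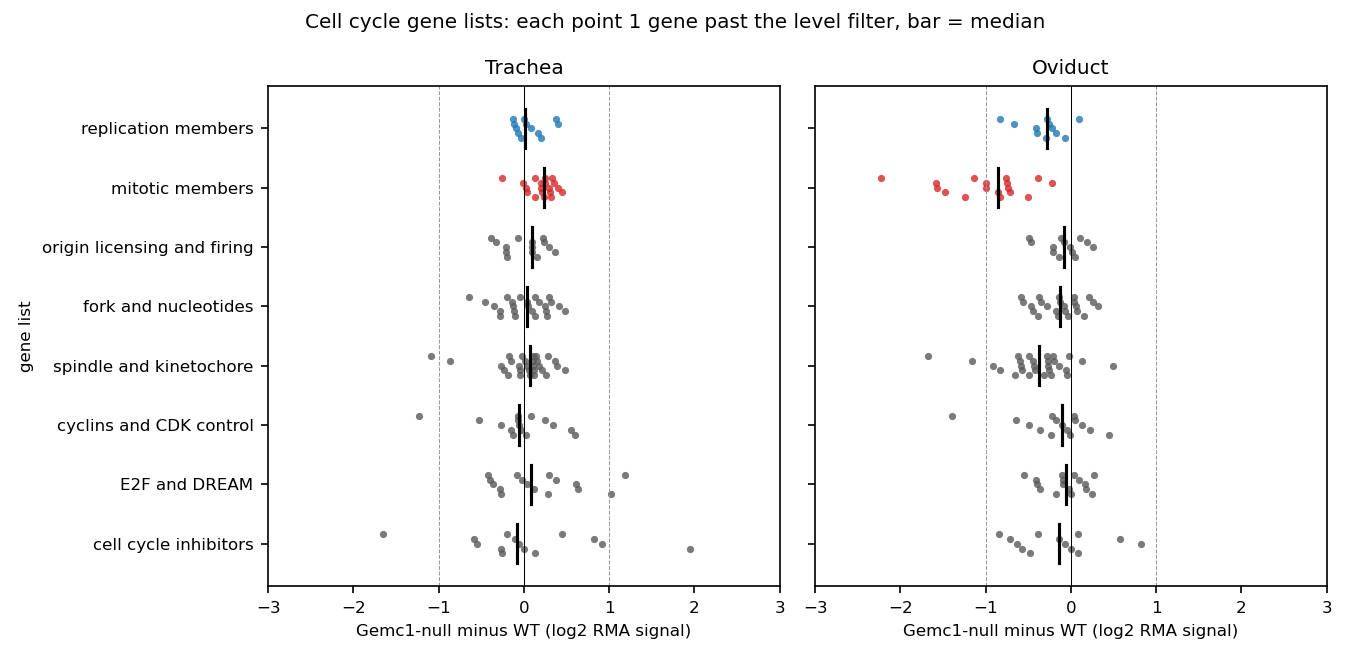
Difference between the array labelled Gemc1-null and the WT array (horizontal axis, log2) for each gene past the level filter in the 2 member classes and 6 further cell cycle lists (vertical axis), trachea on the left and oviduct on the right. Points are genes, black bars list medians and dashed lines 2-fold. In oviduct the mitotic members (median -0.86) and the spindle and kinetochore list (median -0.37) lie lowest, and in trachea the list medians lie between -0.08 and 0.23.

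Markers of other cells differed between the same oviduct arrays. The summed linear signal of the 21 mitotic members was 2405 in WT oviduct and 1180 in null oviduct, beside 1956 and 2236 in WT and null trachea. The sums include genes at background. Of the 21 mitotic members 2 lay below the negative-control median in WT oviduct and 10 in null oviduct, beside 6 and 2 in WT and null trachea. Granulosa genes of the ovary, whose cells proliferate in growing follicles, were at least 2-fold lower in 7 of 8 measured members, with Inha at -4.23, Nr5a2 at -2.92 and Hsd17b1 at -2.49. Their summed signal was 6948 in WT oviduct and 917 in null oviduct, beside 969.6 and 981.1 in the tracheas. Of the 8 granulosa genes 0 lay below the negative-control median in WT oviduct and 2 in null oviduct. Luteal and steroidogenic genes had a summed signal of 8148 and 464 in WT and null oviduct, with 1 and 4 of 7 genes below the negative-control median. Cyp11a1, which makes pregnenolone, stood at 12.05 in WT oviduct and 5.71 in null oviduct, and Hsd3b1 and Akr1cl differed by -5.48 and -5.33. Oocyte genes had summed signals of 827 and 311, and 8 of 8 lay below that median in null oviduct against 2 in WT oviduct. The part of ovarian cells in the lower mitotic genes was not tested.

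Motile cilia genes were lower in oviduct in 11 of 11 cases, with summed signals of 7800 and 510.1. Their part was likewise not tested. Several other lists had 0 genes past 2-fold in oviduct. General epithelial genes had a median of 0.16 and oviduct secretory genes one of 0.38, over 7 and 6 genes. Lymphocyte genes had a median of 0.29 over 4 genes, macrophage genes one of 0.005 over 5, fibroblast genes one of 0.02 and smooth muscle genes one of 0.07. Germinal centre B cell genes had a median of -0.04 over 3 genes, and endothelial genes one of -0.31. Of the airway secretory genes 2 of 4 past the filter were at least 2-fold higher, Agr2 at 1.43 and Scgb3a1 at 1.16, while Bpifb1 was at -0.52. Over all 8 measured genes the median was 0.21, and 5 lay below the negative-control median in null oviduct. The list had summed signals of 1073 and 2382 in WT and null oviduct, where Agr2 alone stood at 9.45 and 10.87 in log2.

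In trachea the members were near 0 on 2 arrays whose cell type markers were far apart. Lymphocyte genes had a summed signal of 5562 on the WT array and 409.5 on the null array, with 7 of 7 at least 2-fold lower. Airway secretory genes had 38610 and 930.2, and motile cilia genes 5651 and 447.7. In the other direction airway basal cell genes, markers of the progenitors that divide to renew this epithelium, had 2623 and 12420, squamous genes 334 and 26480 and skeletal muscle genes 889 and 40730. The summed signal of the 34 members was 3942 and 4357 on the same arrays. The part of these cells in the members' levels was not tested.

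**Figure D4:**
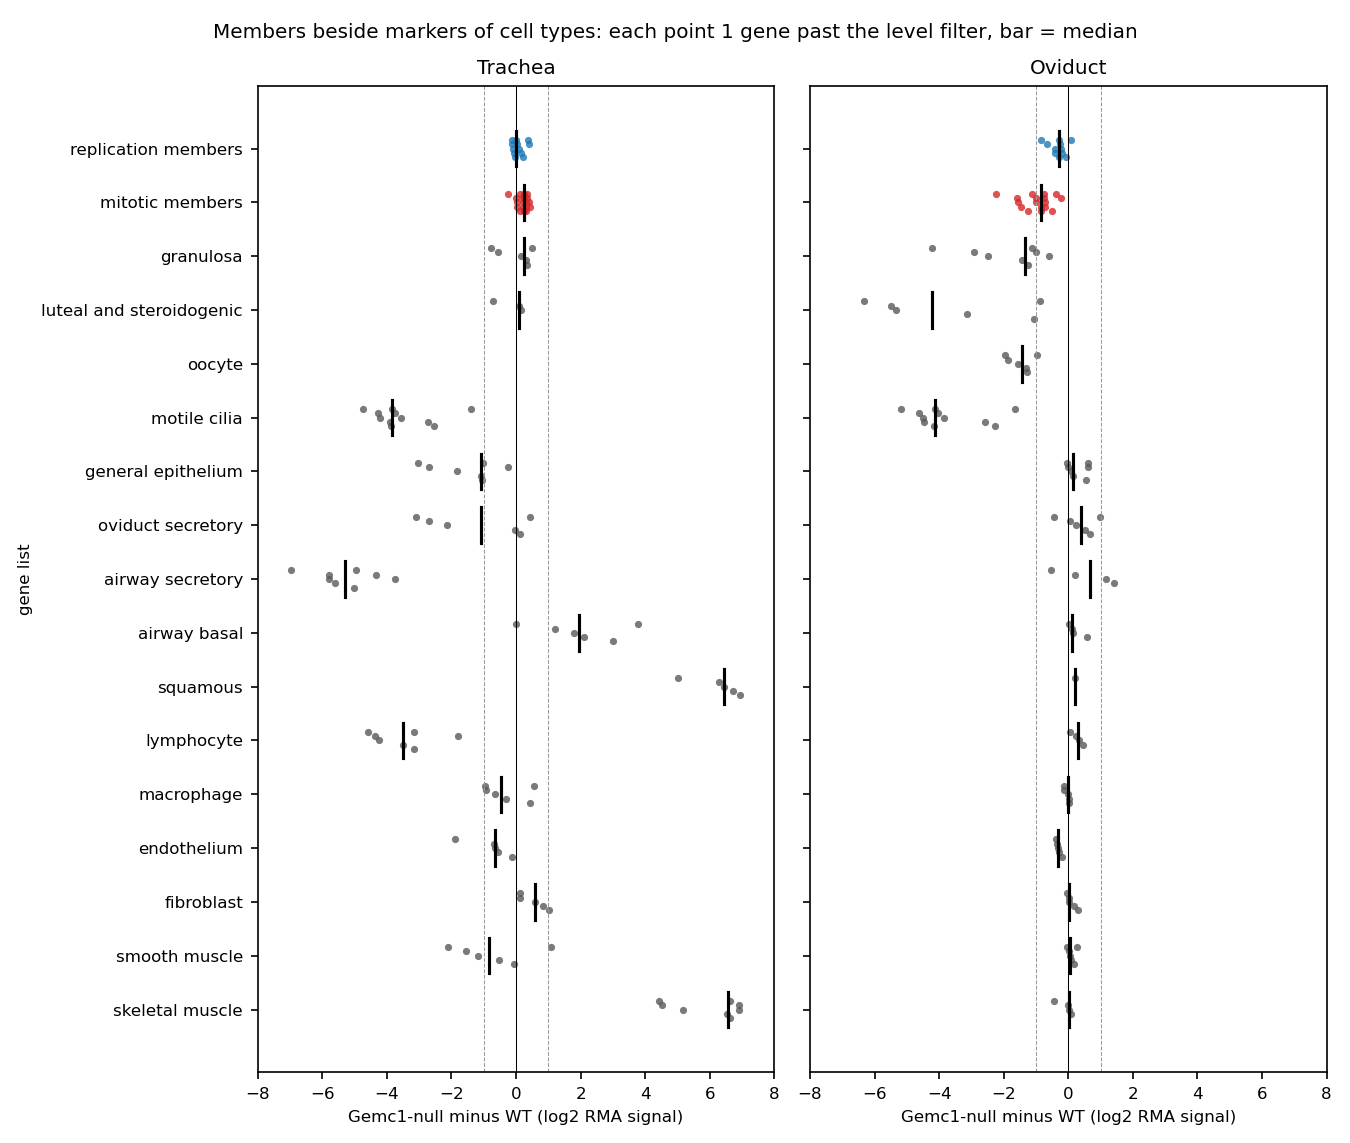
Difference between the array labelled Gemc1-null and the WT array (horizontal axis, log2) for each gene past the level filter among the members and 15 lists of cell type markers (vertical axis), trachea on the left and oviduct on the right. Points are genes, black bars list medians and dashed lines 2-fold. In oviduct the mitotic members, the granulosa, luteal and oocyte genes and the motile cilia genes lie below 0, and in trachea the members lie between -0.25 and 0.45 while several marker lists are beyond 2-fold in either direction.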

How the data were processed

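Total RNA was labelled as biotinylated sense-strand cDNA, per the labels' protocols, and hybridised to 1-colour Affymetrix arrays. Per the submitters' processing notes the values were made with RMA; its version and settings are not stated there. The deposited numbers are log2 of a log2 RMA signal: raising 2 to each of them returned a figure with at most 6 digits in 100% of cells (relative tolerance 1e-09), and raising 10 to them in 0.08%. Levels here are that recovered log2 signal, which RMA by design background-corrects and quantile-normalizes, so a shift common to most genes would not show.

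Of 65956 transcript clusters, 31258 had 1 gene in the platform annotation, with symbols updated through a RefSeq table of GRCm38.p6, 1492 had several genes and 33206 were not listed. For genes with several probe sets (441 of 30702) the one with the highest mean was used. The members and gene lists were chosen with earlier results of these data known. All 34 members are named, with the 3 filtered genes of largest absolute difference from each other cell cycle list and up to 3 from each marker list. Mybl2, Gmnc, Ovgp1 and Scgb1a1 are named outside that rule. Where the dimmer array of a fold lay below its negative-control median, that median took its place ("at least"). No member exceeded the negative controls' 95th percentile, 8.70 to 8.87, on any array (0 of 34). The joint fit used limma 3.58.1 in R 4.3.3. Its code was run on simulated data with small noise and equal genotype effects in both tissues, which does not show how the fit performs on these arrays. Alternatives were the fold threshold, level filter, probe-set rule, a background floor, centring, quantile normalization, an intensity trend and leaving out a factor.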

Additional observations from a re-analysis of the deposited data

Results flagged for a closer look

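The members that lay on opposite sides of 0 in the 2 tissues are given here by their oviduct difference minus their trachea difference, in log2. With 1 array per group this difference was not tested. The median over all 34 members was -0.87, over the mitotic members -1.12 and over the replication members -0.28. The mitotic cyclins and their kinase were at -1.92 (Ccnb2), -1.78 (Ccna2) and -1.20 (Cdk1), and Mki67 was at -2.48. The spindle genes were Kif11 at -1.63, Tpx2 at -1.13, Nusap1 at -1.12, Kif20a at -0.98, Prc1 at -1.19 and Ect2 at -1.25, beside Top2a at -1.38. Mitotic kinases and checkpoint genes were Plk1 at -1.16, Bub1 at -1.09, Aurka at -0.87 and Cdc20 at -0.95, and kinetochore and passenger genes were Cenpe at -1.09, Cenpf at -0.88, Birc5 at -0.60 and Cdca8 at -0.43. Of the replication members, Ccne2 was at -1.08, Rrm1 at -0.69, Mcm5 at -0.44, Cdc6 at -0.41, Mcm2 at -0.27 and Cdt1 at -0.27. Bub1 and Cenpe lay below the negative-control median on all 4 arrays, and Ccne2 and Cdc6 on 3 of 4. Mki67, Kif11, Top2a, Tpx2, Nusap1, Prc1, Ect2 and Cenpf lay below it in null oviduct, so the sizes given for them depend on background. With a floor at that median the oviduct difference was -1.98 for Mki67, -0.76 for Kif11 and -0.15 for Nusap1.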

How the results depend on the processing

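The count of 6 members at least 2-fold lower in oviduct was 16 at a 1.5-fold threshold and 2 at 3-fold, and 4 with a floor at the negative-control median. It was 8 after quantile normalization, and 4 of the 8 members that passed a level filter at the 75th percentile. Between the WT arrays the counts of 0 became 2 lower and 2 higher at 1.5-fold, of 28 members past the filter. Of all filtered genes 11.8% were lower and 10.7% higher by as much, so both counts are below the background. That floor moved the median of all members from 0.20 to 0.088 in trachea and from -0.72 to -0.43 in oviduct, the mitotic median in oviduct from -0.86 to -0.65, and turned the replication median in trachea from 0.024 to -0.021. It also turned Bub1 in oviduct from -1.03 to 0.021, since both arrays then sit at the floor, and the median of all named genes in trachea from 0.06 to -0.24. Centring and quantile normalization kept every median within 0.1 of its value. Another probe-set rule could not change the members, since each was read by 1 probe set. In oviduct 0 members changed sign under centring or quantile normalization, and in trachea Rrm2 and Bub1 did under the latter. Under the floor 4 changed sign in each tissue (Cdc6, Ccne2, Bub1 and Cenpe), which left 29 below and 5 above 0 in oviduct, 12 and 22 in trachea, and 19 of 21 mitotic members below 0 in oviduct. With genotype left out of the fit, 4 members instead of 2 were lower in oviduct than in trachea at an unadjusted p under 0.05 (limma). Of the 20994 genes in the fit, 979 instead of 804 were. The genotype counts of 0 held under each alternative fit. No paired analysis was possible because the labels number no replicates and each group is 1 array. Signal over background limits these genes. Below the negative-control median lay 13 of 34 in null oviduct, 4 in WT oviduct, 8 in WT trachea and 2 in null trachea. Of the 30702 named genes 10448, 10551, 12141 and 10620 did so on the same arrays in that order. Low signal was thus common among all named genes too. From WT to null oviduct, however, the count of members rose from 4 to 13, while that of all named genes went from 10551 to 10448.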
